A study of Homo sapiens with 12 samples.

Results

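The genes described here are 10 genes of cellular iron handling in HK-2 cells, an immortalized line of human renal proximal tubule epithelium. They are the ferritin subunit genes FTH1 and FTL, the ferritin cargo receptor gene NCOA4, the uptake genes TFRC, SLC11A2 and STEAP3, the exporter gene SLC40A1, the heme oxygenase gene HMOX1 and the genes of the iron sensors IREB2 and ACO1. They were chosen by name and role, with no threshold on any value, but with the FPKM values of all 4 groups in view. Their levels and changes are therefore given as a description without p-values. Where a change is placed past or short of a threshold below, the placing is also only a description. All 10 rows were found among the 26334 genes of the deposited table, and all 10 passed the filter on low values that left 12649 genes for testing (a level of at least 1 FPKM, fragments scaled to transcript length and library size, in at least 3 libraries).

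PRCC-TFE3, a fusion gene found in renal cell carcinoma, was under doxycycline control in these cells. They were cultured for 48 h with vehicle (DMSO), with doxycycline (Dox), with 100 nM MSC2530818, an inhibitor of the Mediator kinases CDK8 and CDK19, or with Dox and the inhibitor. Every group held 3 libraries of poly(A) RNA, described in the labels as independent biological replicates. All groups carried the inducible construct and grew with Tet-approved serum, puromycin and blasticidin S. No library here comes from cells lacking the construct, and what Dox itself does cannot be told apart from what the fusion does. The sources used here give neither the Dox dose nor whether the line is a single clone.

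Ferritin is a hollow shell of heavy and light chains that stores iron as a mineral. The heavy chain, encoded by FTH1, oxidizes iron on entry, and the light chain, encoded by FTL, helps mineral form. Transferrin-bound iron enters through the transferrin receptor (TFRC), is reduced in the endosome by STEAP3 and leaves it through SLC11A2, while ferroportin (SLC40A1) is the known iron exporter of the cell surface. When iron is scarce, the regulatory proteins encoded by ACO1 and IREB2 bind hairpins called iron responsive elements. Binding in the 5′ untranslated region (UTR) blocks translation, as in ferritin and ferroportin mRNA, and binding in the 3′ UTR protects the mRNA from decay, as in TFRC mRNA. Proximal tubule cells reabsorb filtered iron, and TFE3 belongs to a family of factors that act on genes of the lysosome, where ferritin is broken down.

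The elements are shown because they divide these genes into those that iron is known to control at translation and those it controls at mRNA decay, of which FPKM reads only the mRNA level. The UTRs of GENCODE 29 transcripts (GRCh38) were searched for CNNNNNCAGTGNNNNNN on the sense strand, an unpaired C and a 6-base loop with A, C or T at its last base, with the 5 bases on each side of the loop able to pair (G with T allowed). FTH1 and HMOX1 were searched with all coding genes. Any match in them is not reported here, because neither has an entry in the RefSeq promoter table used below. A match stood in the 5′ UTR of 22 genes (0.112% of 19684 coding genes) and in the 3′ UTR of 101 (0.513%), in UTRs of differing length. Of the other 8 genes, FTL and SLC40A1 had a match in the 5′ UTR and TFRC had 4 in the 3′ UTR. Each line gives 30 bases, 5′ to 3′, with the unpaired C and the loop in capitals.
FTL, 5′ UTR, chr19:48965334-48965363, plus strand: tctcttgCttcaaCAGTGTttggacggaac
SLC40A1, 5′ UTR, chr2:189580661-189580690, minus strand: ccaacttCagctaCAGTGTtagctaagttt
TFRC, 3′ UTR, chr3:196050979-196051008, minus strand: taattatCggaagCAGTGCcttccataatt
TFRC, 3′ UTR, chr3:196050575-196050604, minus strand: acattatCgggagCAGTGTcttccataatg
TFRC, 3′ UTR, chr3:196050510-196050539, minus strand: tctgtatCggagaCAGTGAtctccatatgt
TFRC, 3′ UTR, chr3:196050463-196050492, minus strand: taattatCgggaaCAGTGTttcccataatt
SLC11A2 had no match of these letters, and values summed per gene do not separate its transcript forms. The search allowed no unpaired base within the stem, so it would miss an element of another form, in SLC11A2 or elsewhere.

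TFE3, which counts the resident gene and the fusion together, stood at 35.8 ± 3.07 FPKM (mean ± SD, n = 3, as below) in vehicle, 150 ± 4 with Dox, 27.8 ± 1.75 with the inhibitor and 84.2 ± 3.05 with both. Its Dox change was smaller with the inhibitor (interaction -0.47 ± 0.1 on the log2 scale, limma adjusted p = 0.023), and its part in the results below was not tested. The FPKM values of a library added up to between 429208 and 473950, and absolute depth is unknown. Of 12 proximal tubule markers 6 reached 1 FPKM in any library (PAX8, GGT1, MME, CDH6 and SLC5A2 among them), and SLC22A6 was listed at 0 in all. Their summed level was 203 to 231 FPKM in vehicle, 187 to 202 with Dox, 271 to 279 with the inhibitor and 231 to 243 with both, and its part in the results was not tested. Of 6 macrophage and leukocyte markers, only CD68, a lysosomal glycoprotein gene that other cells also express, reached 1 FPKM. Their summed level was 34.7 to 43 FPKM in vehicle, 53.6 to 59.1 with Dox, 25.6 to 31.2 with the inhibitor and 29.8 to 34.1 with both, and its part in the results was not tested. Of 6 erythroid markers HBA1 and HBA2 reached 1 FPKM, HBB was listed at 0 in all 12 libraries, and the summed level did not exceed 1.79 FPKM. Of 4 hepatocyte markers only SERPINA1 reached 1 FPKM and TTR was listed at 0, and the summed level was 7.3 to 8.29 FPKM with the inhibitor and 0.57 to 2.06 in the other groups. No marker of distal tubule or endothelium reached 1 FPKM.

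**Figure D1:**
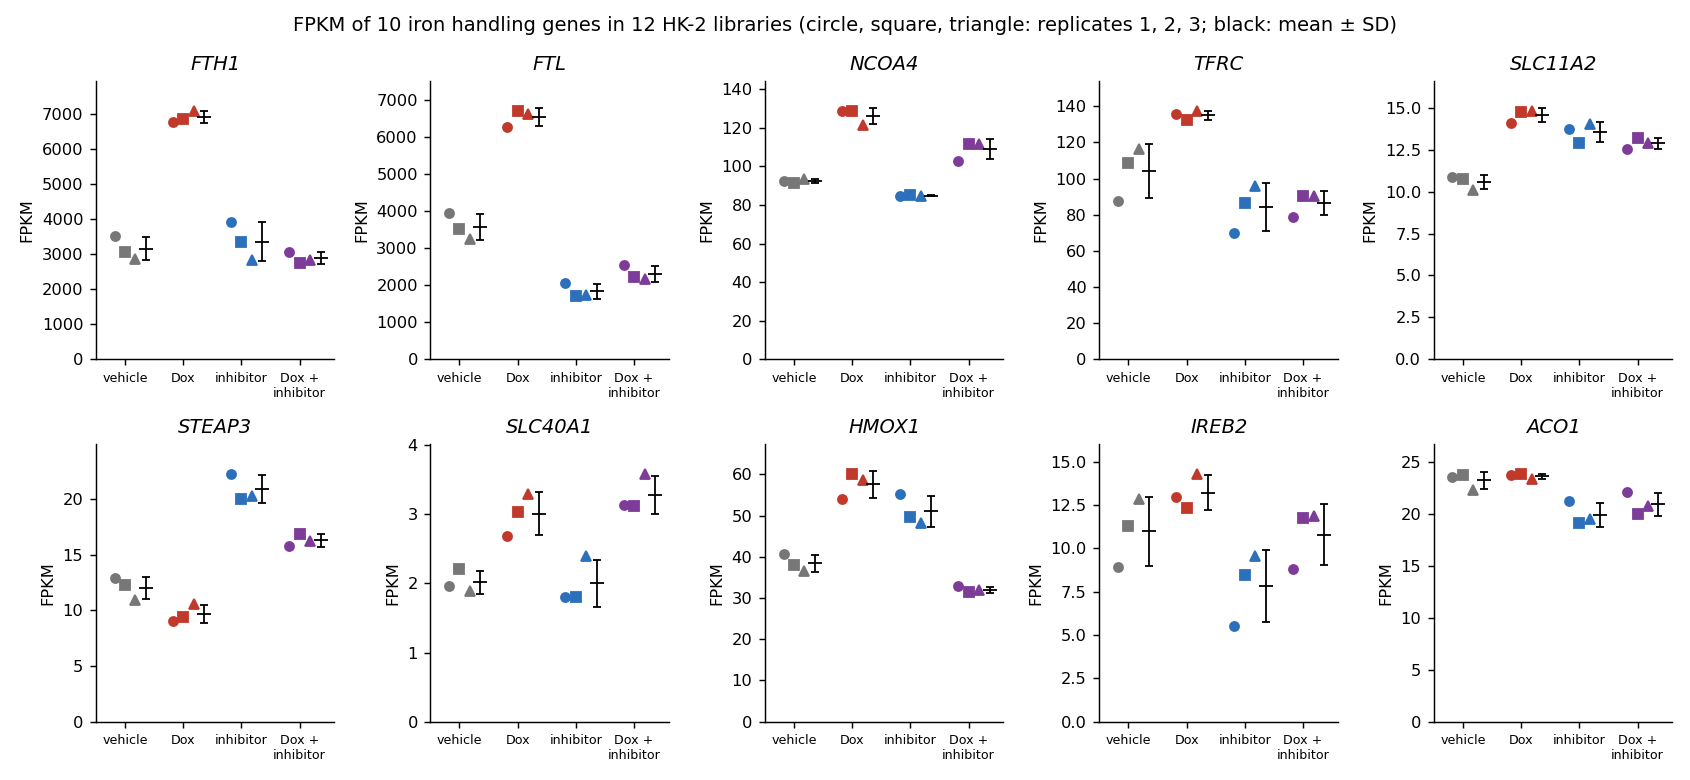
FPKM (y axis, linear, from 0) of the 10 iron handling genes in the 4 groups (x axis), with 1 symbol per library and the mean ± SD in black. The 3 Dox libraries stand above all others for FTH1, FTL, NCOA4, TFRC and SLC11A2, and for SLC40A1 both Dox groups stand above both groups without Dox. The share of all tested genes whose groups separate in such ways, here or below, was not counted.

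Ferritin transcripts were among the most abundant of the table and were higher with Dox than in vehicle, FTH1 2.2 times and FTL 1.83 times. With the inhibitor present, FTH1 was not higher with Dox. FTH1 (chromosome 11, 61959718 to 61967660, minus strand) stood at 3508.67, 3064.04 and 2864.44 FPKM in vehicle and at 6765.76, 6861.28 and 7082.68 FPKM with Dox. With the inhibitor it stood at 3915.47, 3327.24 and 2816.54 FPKM, and with Dox and the inhibitor at 3061.64, 2734.51 and 2832.64 FPKM. The Dox libraries lay above the other 9, whose groups overlapped. The log2 change with Dox was 1.14 ± 0.11 (SE, as for all log2 changes) without the inhibitor and -0.21 ± 0.11 with it, a difference of -1.35 ± 0.16 between them. The Dox change with the inhibitor was short of the threshold of adjusted p under 0.05 over all genes (called below, the threshold). It was past the threshold after quantile normalization (-0.27) and without inhibitor 3 (-0.33). FTH1 was the most abundant gene in each of the 3 Dox libraries and held ranks 2 to 4 in the other 9.

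FTL (chromosome 19, 48965301 to 48966878, plus strand) stood at 3947.98, 3527.57 and 3246.02 FPKM in vehicle and at 6267.07, 6708.74 and 6633.44 FPKM with Dox. With the inhibitor it stood at the lowest values of the 4 groups, 2058.52, 1700.65 and 1725.19 FPKM, and with both agents it stood at 2533.65, 2205.59 and 2153.65 FPKM. No groups overlapped, in the order inhibitor, both agents, vehicle and Dox. The Dox change of FTL was 0.87 ± 0.1 without the inhibitor and 0.33 ± 0.1 with it, and the difference of -0.54 ± 0.13 was short of the threshold. It was past the threshold after median-ratio scaling (-0.58) and without vehicle 1 or without Dox plus inhibitor 1 (-0.62 each), and past it with the opposite sign after quantile normalization (0.54). The inhibitor change was -0.97 ± 0.1 without Dox and -1.51 ± 0.1 with it. The Dox change with the inhibitor was short of the threshold without any one of vehicle 2, Dox 2 or 3, inhibitor 2 or 3, or Dox plus inhibitor 1 to 3 (0.26 to 0.38), and after median-ratio scaling (0.25). Quantile normalization also turned the Dox change of FTL without the inhibitor to -0.16. That method gives each rank the same value in every library, and FTL already held rank 1 or 2 in vehicle and held rank 2 with Dox.

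The balance of the FTH1 and FTL transcripts separated the 4 groups. The ratio of FTH1 to FTL FPKM, taken after the values were seen, was 0.889, 0.869 and 0.882 in vehicle, 1.08, 1.02 and 1.07 with Dox, 1.9, 1.96 and 1.63 with the inhibitor, and 1.21, 1.24 and 1.32 with both. No groups overlapped. The ratio is formed within a library and does not move with a scaling of whole libraries. The sum of both genes made up 1.46% ± 0.11 of the FPKM sum in vehicle, 2.97% ± 0.111 with Dox, 1.17% ± 0.115 with the inhibitor and 1.17% ± 0.0529 with both. The inhibitor group thus held the highest ratio beside a low sum, with lower FTL and an FTH1 level that overlapped vehicle. The inhibitor change of FTH1 was 0.08 ± 0.11 without Dox and -1.26 ± 0.11 with it. The first was short of the threshold, also after median-ratio scaling (0.2), and past it after quantile normalization (0.27). GENCODE 29 names 25 FTH1 and 16 FTL pseudogenes, of which the table lists 2 and 1. FTH1P3, the highest of these, stood at 0.59 to 2.06 FPKM, and how reads of the other copies were assigned is not given, so the ferritin levels are uncertain to that extent. BEST1, which overlaps FTH1 on the other strand, did not exceed 0.1 FPKM.

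**Figure D2:**
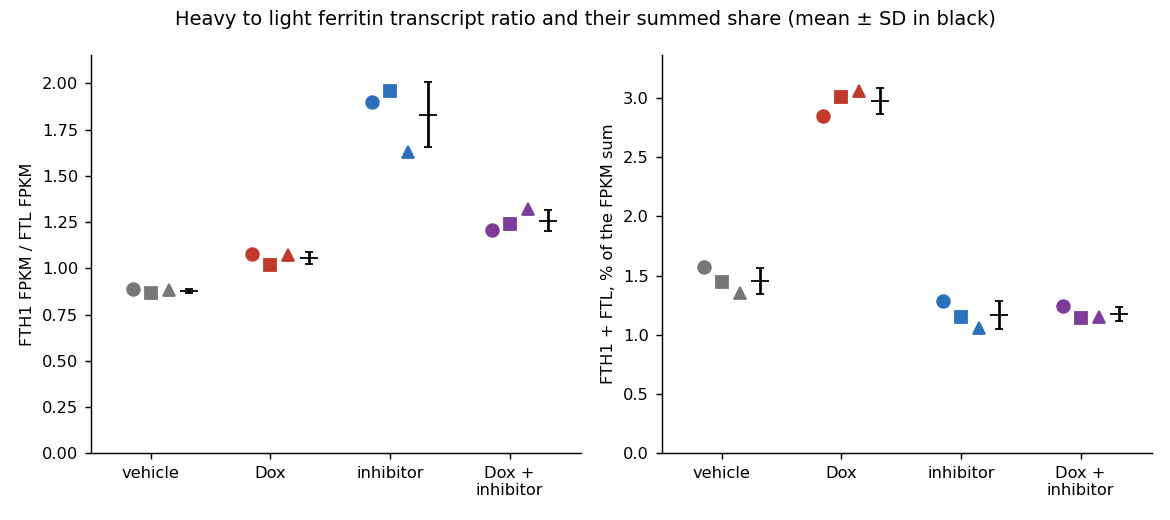
The left panel plots the ratio of FTH1 to FTL FPKM and the right panel the share of the FPKM sum held by both genes (%), per library for the 4 groups, with mean ± SD in black. The ratio is lowest in vehicle (0.869 to 0.889) and highest with the inhibitor (1.63 to 1.96), whereas the share is highest with Dox (2.85% to 3.06%).

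NCOA4 (chromosome 10, 46005088 to 46030714, minus strand), whose product carries ferritin to the lysosome, stood at 92.54, 91.43 and 93.42 FPKM in vehicle and at 128.92, 128.73 and 121.58 FPKM with Dox. With the inhibitor it stood at 84.57, 85.08 and 84.73 FPKM, and with both agents at 102.71, 111.44 and 111.73 FPKM. No groups overlapped. NCOA4 was higher with Dox by 0.45 ± 0.05 without the inhibitor and by 0.35 ± 0.05 with it, a difference of -0.09 ± 0.07. NCOA4 was thus higher with Dox at both inhibitor settings. The inhibitor change was -0.12 ± 0.05 without Dox, short of the threshold and past it without Dox plus inhibitor 1 (-0.12), and -0.22 ± 0.05 with Dox.

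Among the uptake genes, TFRC and SLC11A2 were highest with Dox alone, and STEAP3 was lowest there. TFRC (chromosome 3, 196027183 to 196082189, minus strand) stood at 87.78, 108.77 and 116.48 FPKM in vehicle and at 135.7, 132.21 and 137.54 FPKM with Dox. It stood at 69.71, 86.32 and 96.06 FPKM with the inhibitor and at 78.9, 90.2 and 90.61 FPKM with both agents. The Dox libraries lay above the other 9, whose groups overlapped, and replicate 1 was lowest in vehicle, inhibitor and both agents. Without replicate 1 of every group, the Dox change was 0.26 and the inhibitor change without Dox -0.3, both past the threshold. With all libraries the Dox change was 0.38 ± 0.12 without the inhibitor, just short of the threshold and past it without any one of vehicle 3, inhibitor 1 or inhibitor 3 (0.38 to 0.46), and 0.05 ± 0.12 with it. The inhibitor change was -0.31 ± 0.12 without Dox, short of the threshold and past it without vehicle 1 or inhibitor 3 (-0.43 to -0.41), and -0.64 ± 0.12 with Dox.

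SLC11A2 (chromosome 12, 50979401 to 51028566, minus strand), the divalent metal transporter, stood at 10.87, 10.75 and 10.11 FPKM in vehicle, below all other libraries. Its values were 14.13, 14.78 and 14.85 FPKM with Dox, 13.79, 12.92 and 14.04 with the inhibitor, and 12.59, 13.21 and 12.93 with both. SLC11A2 was higher than in vehicle with Dox alone (0.43 ± 0.05) and with the inhibitor alone (0.33 ± 0.05). The Dox change with the inhibitor was -0.07 ± 0.05, and the difference between the Dox changes was -0.5 ± 0.08. The inhibitor change with Dox was -0.16 ± 0.05, which was short of the threshold after either rescaling (-0.09 and -0.08) and without any one of vehicle 2, Dox 1 to 3 or Dox plus inhibitor 1 to 3 (-0.19 to -0.15).

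STEAP3 (chromosome 2, 119223831 to 119265652, plus strand), the endosomal ferric reductase gene, was lower with Dox and higher with the inhibitor. It stood at 12.87, 12.25 and 10.94 FPKM in vehicle, 9.02, 9.42 and 10.58 with Dox, 22.3, 20.01 and 20.29 with the inhibitor, and 15.79, 16.9 and 16.26 with both. No groups overlapped. The inhibitor change was 0.75 ± 0.08 without Dox and 0.7 ± 0.08 with it. The Dox change was -0.29 ± 0.08 without the inhibitor and -0.34 ± 0.08 with it, and the first was short of the threshold without any one of vehicle 1 or 2 or Dox 1 or 2 (-0.27 to -0.24). STEAP3-AS1, on the other strand, did not exceed 0.26 FPKM.

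SLC40A1 (chromosome 2, 189560579 to 189583758, minus strand), the ferroportin gene, was low throughout. It stood at 1.97, 2.21 and 1.89 FPKM in vehicle, 2.69, 3.03 and 3.3 with Dox, 1.81, 1.8 and 2.39 with the inhibitor, and 3.13, 3.12 and 3.59 with both. Libraries with Dox lay above those without it at both inhibitor settings, and groups alike in Dox overlapped. The Dox change was 0.4 ± 0.1 without the inhibitor, short of the threshold without Dox 3 (0.35), and 0.52 ± 0.1 with it. The inhibitor changes were -0.02 ± 0.1 and 0.1 ± 0.1. At this level the pseudocount of 1 understates the changes.

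HMOX1 (chromosome 22, 35380361 to 35394214, plus strand), whose product frees iron from heme, differed with Dox in opposite directions at the 2 inhibitor settings. It stood at 40.58, 37.99 and 36.63 FPKM in vehicle and at 53.96, 60.2 and 58.73 FPKM with Dox. It stood at 55.19, 49.61 and 48.32 FPKM with the inhibitor and at 32.88, 31.38 and 31.86 FPKM with both. The group with both agents lay below all others, and the groups with a single agent overlapped at the top. The Dox change was 0.57 ± 0.06 without the inhibitor and -0.65 ± 0.06 with it, a difference of -1.23 ± 0.09. The inhibitor change was 0.4 ± 0.06 without Dox and -0.83 ± 0.06 with it.

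Neither sensor gene passed the threshold with Dox. IREB2 (chromosome 15, 78437431 to 78501456, plus strand) stood at 8.9, 11.3 and 12.84 FPKM in vehicle, 12.95, 12.35 and 14.32 with Dox, 5.53, 8.45 and 9.55 with the inhibitor, and 8.79, 11.73 and 11.86 with both. Neighbouring groups overlapped throughout, and replicate 1 was lowest in the groups other than Dox. Its 4 changes lay between -0.46 ± 0.18 (inhibitor without Dox) and 0.43 ± 0.18 (Dox with the inhibitor), all short of the threshold, and the first was past it without vehicle 1 or inhibitor 3 (-0.6 to -0.59). Without replicate 1 of every group both were past it, at -0.39 and 0.36. ACO1 (chromosome 9, 32384603 to 32454769, plus strand), whose product is also the cytosolic aconitase, stood at 23.58, 23.72 and 22.26 FPKM in vehicle, 23.69, 23.87 and 23.36 with Dox, 21.23, 19.07 and 19.47 with the inhibitor, and 22.14, 19.95 and 20.74 with both. Libraries with the inhibitor lay below those without it. Its Dox changes were 0.03 ± 0.06 and 0.07 ± 0.06. Its inhibitor changes of -0.21 ± 0.06 and -0.17 ± 0.06 were short of the threshold after median-ratio scaling (-0.1 and -0.09). The first was also short of it without vehicle 2 or inhibitor 2 (-0.19 to -0.18), and the second without any one of vehicle 2, Dox 1 to 3, inhibitor 2 or 3 or Dox plus inhibitor 2 or 3 (-0.18 to -0.14).

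**Figure D3:**
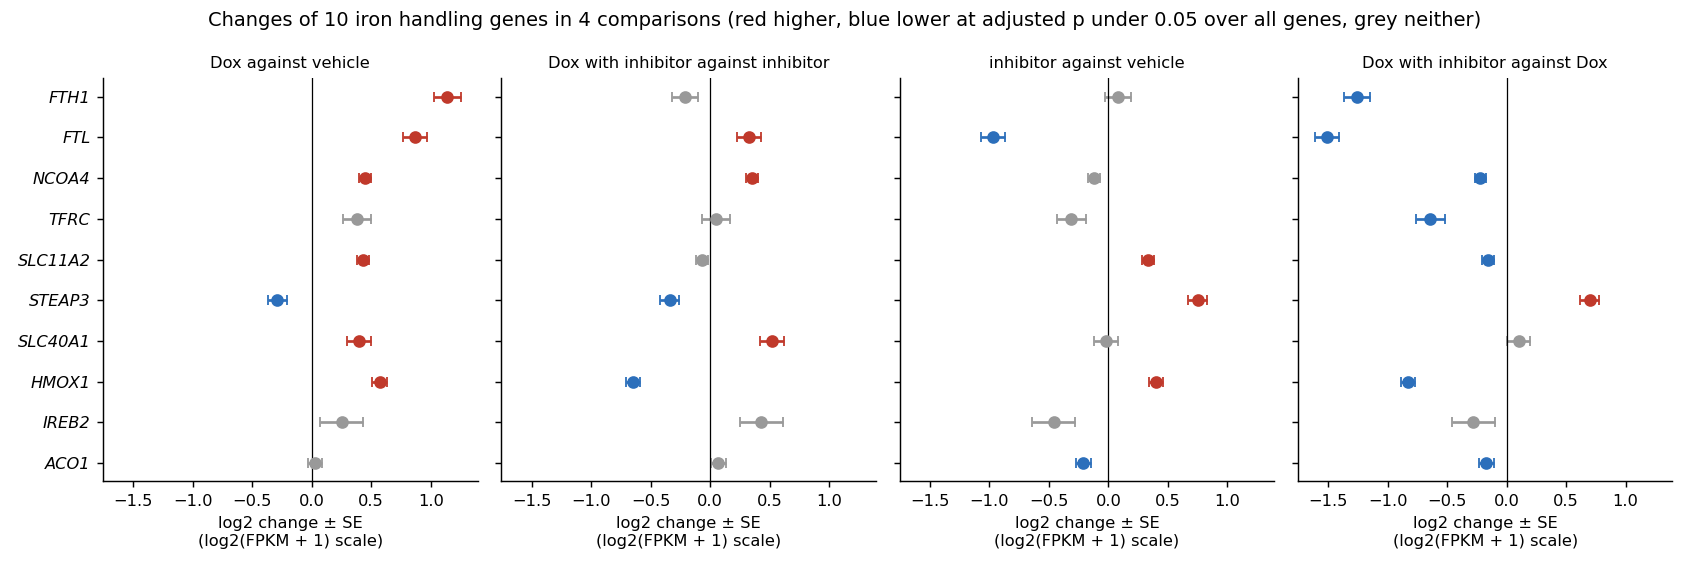
Log2 change ± SE (x axis) of the 10 iron handling genes (y axis) in the 4 comparisons, in red or blue where past the threshold over all genes as higher or lower. With Dox alone 6 genes are red and STEAP3 is blue, and with the inhibitor in the presence of Dox 7 are blue and STEAP3 is red.

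Across the comparisons, 7 of the 10 genes were past the threshold for Dox without the inhibitor (6 higher and 1 lower), where 17.9% of all tested genes were called, 10.6% higher and 7.31% lower. For Dox with the inhibitor it was 5 of 10 (3 higher and 2 lower), against 18.2% of all genes, 12.2% higher and 6.06% lower. The counts were 5 of 10 (3 higher and 2 lower) for the inhibitor without Dox, against 38% of all genes, 11.7% higher and 26.3% lower. They were 8 of 10 (1 higher and 7 lower) for the inhibitor with Dox, against 32.1%, 11.3% higher and 20.8% lower. For the difference between the Dox changes it was 3 of 10, all lower (FTH1, HMOX1 and SLC11A2), against 2.82%, 0.909% higher and 1.91% lower. Since the genes were chosen with these values in view, nothing is read from these shares. The comparisons share groups pairwise, so their changes are not independent. In the values as deposited, 59.2%, 66.7%, 30.8% and 35.3% of the calls were higher in the 4 comparisons in this order, and 44.9%, 37.1%, 54.7% and 53.2% after median-ratio scaling. For the difference between the Dox changes these shares were 32.2% and 25.2%. The inhibitor change of all tested genes without Dox had a median of -0.12, which that scaling moved by 0.11 to -0.01. Relative to it, the changes in that comparison were -0.85 for FTL, 0.86 for STEAP3, 0.52 for HMOX1 and 0.44 for SLC11A2.

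**Figure D4:**
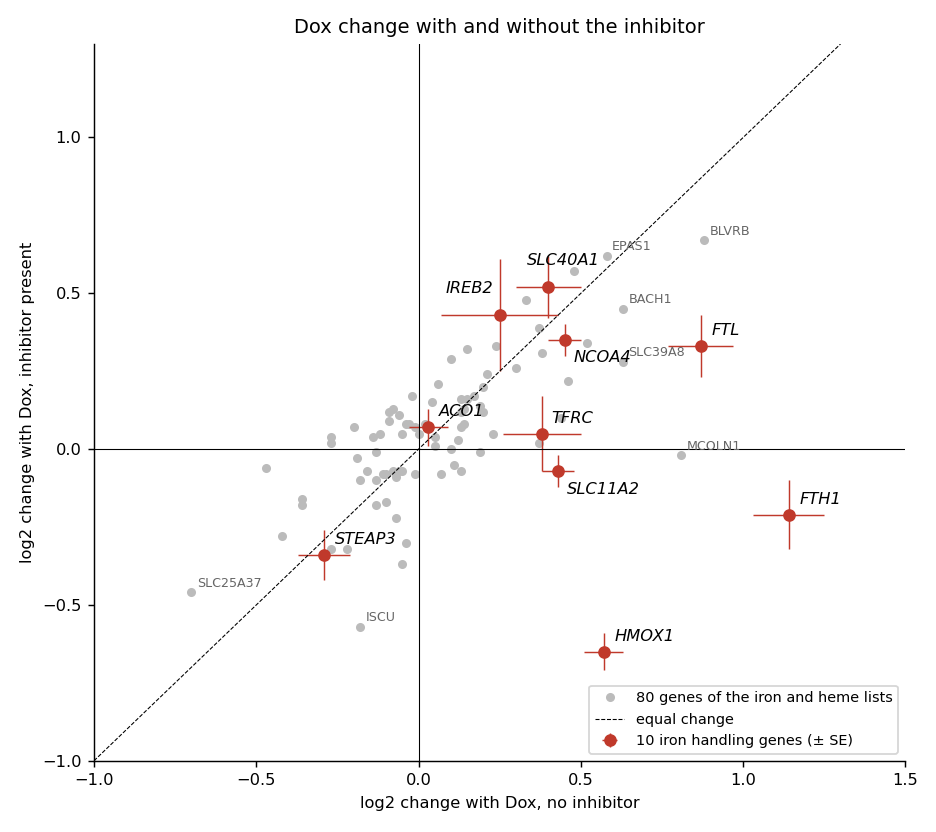
Log2 change with Dox without the inhibitor (x axis) against that with the inhibitor present (y axis) for the 10 iron handling genes (red, ± SE) and the 80 tested genes of the iron and heme lists (grey), with a dashed line of equal change. FTH1 (1.14 and -0.21) and HMOX1 (0.57 and -0.65) lie far below the line, and NCOA4 (0.45 and 0.35) and STEAP3 (-0.29 and -0.34) lie near it.

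The wider pathway was read from 8 lists of 99 genes compiled from general knowledge, of which 80 were tested. None of them is among the 10 genes above. The lists were chosen with earlier results of these data known. Their shares of calls and p-values are therefore a description, and nothing is read from the shares. With Dox alone, 14 rose and 8 fell (27.5% called, against 17.9% of all genes), at a median of 0.01 beside 0.04 over all genes. Among uptake genes 3 of 8 rose and 2 fell (62.5% called, against 17.9% of all genes). MCOLN1, the channel that releases iron and calcium from the lysosome, rose from 7.56, 6.82 and 5.99 FPKM to 11.93, 13.08 and 12.82 FPKM (log2 change 0.81 ± 0.08, limma adjusted p = 5.4e-05). SLC39A8, a metal importer gene, rose by 0.63 (adjusted p = 0.0035), and SLC25A37, the mitochondrial iron importer mitoferrin 1, fell by 0.7 (adjusted p = 0.00016). SLC39A14, an importer of iron not bound to transferrin, was at -0.13 (adjusted p = 0.14), and at -0.17 and called after median-ratio scaling. Of heme breakdown and transport genes 2 of 11 rose and 1 fell (27.3% called, against 17.9% of all genes). BLVRB, the biliverdin reductase B that acts after heme oxygenase, rose by 0.88 ± 0.08 (adjusted p = 2.4e-05), from 17.01, 14.34 and 15.29 FPKM to 27.39, 31.12 and 30.08 FPKM. FLVCR2 stood at 0.53, 0.53 and 0.5 FPKM in vehicle and at 1.04, 1.02 and 1.14 FPKM with Dox, a change of 0.44. It reached 1 FPKM in the Dox group alone, and so passed the filter only through the group where it is high. Its calls are therefore only a description, also within the count of genes that rose. PGRMC2 fell by 0.27 (adjusted p = 0.01).

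EPAS1, whose mRNA carries a known iron responsive element, rose by 0.58 with Dox (limma adjusted p = 1.5e-05). It was 1 of 4 such genes called (25%, against 17.9% of all genes). Of 29 genes of iron-sulfur cluster assembly 4 rose and 2 fell (20.7% called, near the 17.9% of all genes). CISD2 was at 0.52 (adjusted p = 0.00067), ISCA1 at 0.48 (adjusted p = 0.0012) and FAM96A at 0.46 (adjusted p = 0.00068). FAM132B, the erythroferrone gene, fell by 0.47 (adjusted p = 0.0018). None of 7 genes for iron chaperones and sensing was called, against 17.9% of all genes. FBXL5, the ubiquitin ligase subunit that targets the IREB2 product, was at 0.21 (adjusted p = 0.14). Of the regulators of HMOX1 and ferritin transcription 2 of 6 rose and none fell (33.3% called, against 17.9% of all genes). MAFG rose by 0.37 (adjusted p = 0.0029), and BACH1, the heme-sensing repressor of HMOX1, by 0.63 (adjusted p = 0.025), a call that ended without any one of vehicle 1 or Dox 1 to 3 (0.5 to 0.65). NFE2L2, the gene of the activator NRF2, was at 0.37 (adjusted p = 0.29), and its inhibitor gene KEAP1 at -0.18 (adjusted p = 0.11), called without vehicle 3 (-0.24).

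Heme synthesis had 1 of 12 members higher and 2 lower with Dox (25% called, against 17.9% of all genes). PPOX was at -0.42 (limma adjusted p = 0.033, ending without any one of vehicle 1 or 2 or Dox 1 to 3, -0.47 to -0.3), and ALAD at 0.24 (adjusted p = 0.022, ending without vehicle 2 or 3 or Dox 2 or 3, 0.2 to 0.25). HFE, the hemochromatosis gene, was at 0.33 (adjusted p = 0.044), a call that ended after either rescaling (0.29 and 0.23), with a pseudocount of 0.1 (0.38) and without any one of 9 libraries (vehicle 2 or 3, Dox 1 to 3, inhibitor 3, Dox plus inhibitor 1 to 3, 0.26 to 0.36).

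With the inhibitor present, 10 of the 80 list genes rose with Dox and 8 fell (22.5% called, against 18.2% of all genes, median 0.05 beside 0.08). BLVRB (0.67, limma adjusted p = 0.00034) and EPAS1 (0.62, adjusted p = 2e-05) rose again, and SLC25A37 fell again (-0.46, adjusted p = 0.0043). MCOLN1 did not pass the test, at 5.81, 5.48 and 5.32 FPKM with the inhibitor and 5.96, 5.22 and 5.14 FPKM with both agents (-0.02, adjusted p = 0.86). Its Dox changes differed between the inhibitor settings by -0.83 ± 0.12 (adjusted p = 0.0029). ISCU, the scaffold gene of iron-sulfur assembly, fell by 0.57 (adjusted p = 3.9e-05), from 58.86, 58.9 and 53.93 FPKM to 38.15, 37.45 and 38.88 FPKM. Its fall without the inhibitor was 0.18 (adjusted p = 0.03), and the difference was -0.4 ± 0.07 (adjusted p = 0.011). MCOLN1 and ISCU were the 2 of 80 list genes called for that difference (2.5%, against 2.82% of all genes). ISCA1 (0.57, adjusted p = 7e-04) and ALAD (0.33, adjusted p = 0.0053) rose, as did HFE (0.48, adjusted p = 0.0092). The last 2 calls ended after quantile normalization (0.22 and 0.36).

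Other list calls for Dox with the inhibitor changed when single libraries were left out. CISD2 (0.34, limma adjusted p = 0.011) and SKP1 (0.32, adjusted p = 0.012) were not called without Dox plus inhibitor 3 (0.28 and 0.29). CYBRD1 (0.26, adjusted p = 0.017) was not called without inhibitor 1 or Dox plus inhibitor 2 or 3 (0.23) or after median-ratio scaling (0.18). HERC2 (-0.22, adjusted p = 0.025) was not called without inhibitor 2 or 3 or Dox plus inhibitor 2 or 3 (-0.22 to -0.2). MAFF (-0.37, adjusted p = 0.02) and the heme transporter gene SLC48A1 (-0.3, adjusted p = 0.025) were not called without inhibitor 1 or 2 or Dox plus inhibitor 2 or 3 (-0.35 to -0.32 and -0.32 to -0.26). SLC39A14 (-0.18, adjusted p = 0.04) was not called without any one of vehicle 2, Dox 1 to 3, inhibitor 1 or 3 or Dox plus inhibitor 1 to 3 (-0.19 to -0.14). BACH1 was at 0.45 (adjusted p = 0.089) and FBXL5 at 0.24 (adjusted p = 0.089), both called without Dox plus inhibitor 1 (0.6 and 0.32), while NFE2L2 was at 0.39 (adjusted p = 0.24) and KEAP1 at -0.1 (adjusted p = 0.33).

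The inhibitor without Dox was followed by higher CYBRD1, a ferric reductase gene, and lower BLVRB and HMOX2. Of 11 heme breakdown and transport genes 2 rose and 2 fell (36.4% called, near the 38% of all genes). Of 12 heme synthesis genes 2 rose and 3 fell (41.7% called, also near the 38%). CYBRD1 rose from 44.83, 47.71 and 47.6 FPKM to 82.61, 87.26 and 87.77 FPKM (0.86 ± 0.06, limma adjusted p = 1.8e-06). BLVRB fell by 0.88 (adjusted p = 1.1e-05), from the vehicle values above to 8.39, 7.93 and 7.68 FPKM, and HMOX2, the constitutive heme oxygenase, fell by 0.66 (adjusted p = 8.9e-05). ABCB6 fell by 0.57 (adjusted p = 3e-04), ALAD by 0.55 (adjusted p = 5.3e-05), and UROD by 0.48 (adjusted p = 0.0026). SLC48A1 rose by 0.49 (adjusted p = 0.00069), ISCU by 0.73 (adjusted p = 1.1e-06), NEO1 by 0.36 (adjusted p = 0.0025), SLC39A14 by 0.29 (adjusted p = 0.0018) and EPAS1 by 0.28 (adjusted p = 0.001). HFE fell by 0.61 (adjusted p = 0.00075), ZFP36 by 0.52 (adjusted p = 0.00013), SKP1 by 0.35 (adjusted p = 0.0026) and PCBP1, an iron chaperone gene, by 0.32 (adjusted p = 0.0017). MCOLN1 was called at -0.25 (adjusted p = 0.033), and not after either rescaling (-0.15 and -0.13) or without any one of vehicle 1 or 2 or inhibitor 2 or 3 (-0.24 to -0.18). In all 10 of 80 rose and 27 fell (46.2% called, against 38%, median -0.09 beside -0.12), and after median-ratio scaling 16 rose and 15 fell. Of 29 iron-sulfur genes 15 fell and 1 rose (55.2% called, against 38% of all genes, 26.3% lower and 11.7% higher). After median-ratio scaling 5 fell and 3 rose. NFU1 fell by 0.53 (adjusted p = 0.00096) and CISD1 by 0.49 (adjusted p = 0.00021). None of the 6 transcription regulators was called, against 38% of all genes. BACH1 was at -0.21, NFE2L2 at -0.02 and KEAP1 at -0.14 (adjusted p = 0.35, 0.95 and 0.15). FBXL5 was not called either (0.02, adjusted p = 0.91).

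With Dox present, 12 of 80 list genes rose with the inhibitor and 23 fell (43.8% called, against 32.1%, median -0.07 beside -0.08), and 16 and 17 after median-ratio scaling. BLVRB fell by 1.09 (limma adjusted p = 2.3e-06), MCOLN1 by 1.08 (adjusted p = 3e-06) and HMOX2 by 0.71 (adjusted p = 5.8e-05), while CYBRD1 rose by 0.83 (adjusted p = 2.8e-06). Falls were those of FAM96A (-0.67, adjusted p = 2.3e-05), NFU1 (-0.52, adjusted p = 0.0013), HFE (-0.46, adjusted p = 0.005) and ALAD (-0.45, adjusted p = 0.00023). UROD (-0.42, adjusted p = 0.0062), PCBP1 (-0.32, adjusted p = 0.0022) and ZFP36 (-0.31, adjusted p = 0.0044, -0.22 and not called after quantile normalization) fell too. FLVCR2 was past the threshold at -0.32, only a description since it passed the filter through the Dox group alone. Rises were those of PPOX (0.53, adjusted p = 0.0062), FAM132B (0.5, adjusted p = 0.00059), SLC25A37 (0.41, adjusted p = 0.0031), EPAS1 (0.33, adjusted p = 0.00045), NEO1 (0.31, adjusted p = 0.0073) and SLC39A14 (0.23, adjusted p = 0.0083). CDC14A (0.32, adjusted p = 0.038) was not called without any one of Dox 2 or 3 or Dox plus inhibitor 1 to 3 (0.28 to 0.36). MAFF (-0.34, adjusted p = 0.017) and MAFG (-0.21, adjusted p = 0.036) were not called after median-ratio scaling (-0.26 and -0.13). MAFF was not called without Dox 1 or Dox plus inhibitor 2 or 3 (-0.32 to -0.3), nor was MAFG without any one of Dox 1 to 3, inhibitor 2 or Dox plus inhibitor 1 to 3 (-0.23 to -0.16). BACH1 was at -0.4 (adjusted p = 0.1), and called without inhibitor 1 (-0.4), NFE2L2 at 0 (adjusted p = 1), KEAP1 at -0.06 (adjusted p = 0.56) and FBXL5 at 0.04 (adjusted p = 0.75).

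Genes with patterns most like those of 5 of the iron genes were found by the root mean square difference of centred log2 values over the 12 libraries. For FTH1 they were MCOLN1 (0.161), the long non-coding RNA gene UCA1 (0.166) and PLA2G16 (0.171). UCA1 stood at 42.8, 76.9, 39.8 and 34.3 FPKM in vehicle, Dox, inhibitor and both. For FTL they were UPP1 (0.0897), DDIT3 (0.119) and ANGPTL2 (0.159). UPP1, a uridine phosphorylase gene, stood at 113, 212, 65.1 and 73.3 FPKM in the same order. For HMOX1 they were TBC1D7 (0.15), PLEKHM1 (0.161) and BIRC7 (0.165), and PLEKHM1 stood at 9.81, 16, 11.6 and 9.63 FPKM. For SLC40A1 they were ME1 (0.0843), GAA (0.094) and ZNF583 (0.104), and for TFRC SCAPER (0.0714), SLC35F5 (0.088) and RAD18 (0.0904). The differences are to be set beside the members' own SD over the libraries, 0.542 for FTH1, 0.741 for FTL, 0.346 for HMOX1, 0.319 for TFRC and 0.262 for SLC40A1.

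The promoters were searched because several members were higher together with Dox. RefSeq promoter windows (GRCh38.p14, 250 bases before to 50 after a start) were present for 8 of the 10 genes, without FTH1 and HMOX1. CACGTG, the E-box read by the TFE3 family, was in 0 of these 8 and in 7.26% of all 35116 windows, on either strand. CATGTG, a related E-box, was in NCOA4 alone of the 8 and in 11.1% of all windows. TGACNNNGC, the core of the antioxidant response element, was also in NCOA4 alone and in 13.3% of all windows. The 8 were counted by gene and the background by window, so these shares are of unlike units. The NCOA4 E-box, in capitals, begins 167 bases before an annotated start and lies inside the gene span given above.
NCOA4, chr10:46020151-46020176, minus strand: tgaaaatggcCATGTGaactagttac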

How the data were processed

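Poly(A) RNA of 12 libraries in 4 groups of 3 was prepared with TRIzol and a stranded TruSeq mRNA kit, per the labels' protocols. The authors deposited 1 table of FPKM per gene symbol (26334 genes, 2 decimals). Salmon 1.9.0, Trim Galore 0.6.7 and the builds hg38 and GRCh38.p13 are listed, per the submitters' processing notes, without roles. How FPKM was derived, and whether strand was used, is unstated in these sources. Low values or shared reads can therefore depend on steps not seen here.

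From the FPKM values, log2(FPKM + 1) was fitted with limma 3.58.1 (R 4.3.3, intensity trend, 4 group means, 8 residual degrees of freedom), after keeping genes of at least 1 FPKM in at least 3 libraries (48%). P-values were adjusted by Benjamini-Hochberg over all 12649 tested genes, with 0.05 as the threshold. Fold changes on this scale understate those of low genes. The fit was checked on simulated data. The 10 genes and the lists were chosen with earlier results of these data known. Named list genes are up to 3 called genes with the largest change per list and comparison, up to 2 for the difference between Dox changes, and BACH1, NFE2L2, KEAP1, FBXL5 and SLC39A14 by role. Alternatives covered the pseudocount, filter, scaling, trend, groups fitted, a replicate block and single libraries left out.

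Same-numbered samples did not all deviate together, which was required for pairing, so the reported values have no block. A few genes that the naming rule or the marker lists cover are not reported here.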

Additional observations from a re-analysis of the deposited data

Results flagged for a closer look

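The change with Dox differed between the inhibitor settings for 3 of the 10 iron handling genes and for 2 of the 80 tested list genes (2.5%), where 2.82% of all tested genes were called, by the interaction term of the limma fit (a log2 difference of the Dox change with the inhibitor minus that without it). The difference was -1.35 for FTH1, -1.23 for HMOX1 and -0.5 for SLC11A2, which were chosen with these values in view. It was -0.83 for MCOLN1 (adjusted p = 0.0029) and -0.4 for ISCU (adjusted p = 0.011). TFE3 also had a smaller Dox change with the inhibitor (-0.47), and its part in these differences was not tested. Groups of 3 libraries are too small for a test of single outlying libraries.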

How the results depend on the processing

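Of 2937 log2 changes of single genes under alternatives, 2704 kept their direction and side of the threshold, 198 crossed the threshold in the same direction and 35 changed sign. Under quantile normalization, which fixes the value of each rank, FTL with Dox against vehicle turned from 0.87 to -0.16, and its difference between the Dox changes from -0.54 to 0.54. The other 33 sign changes were between values of at most 0.25 in size. NFE2L2 with the inhibitor was 0.1 after median-ratio scaling, 0.05 after quantile normalization, 0.03 without replicate 1 of all groups, and -0.23 to 0.25 with single libraries left out. NFE2L2 with the inhibitor in the presence of Dox was 0.08, 0.04, 0.1 and -0.08 to 0.14 in the same order, and KEAP1 there was 0.02 after median-ratio scaling. FBXL5 ranged from -0.05 to 0.09 with the inhibitor and from -0.01 to 0.12 with Dox present.

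With the replicate number as a block, 3741 genes were called for Dox, 4548 for Dox with the inhibitor and 666 for the difference between the Dox changes, where the unblocked fit called 2269, 2304 and 357, and 8 in place of 5 of the iron handling genes were past the threshold for the inhibitor without Dox. The block put past the threshold TFRC for Dox and for the inhibitor, IREB2 for the inhibitor and for Dox with the inhibitor, NCOA4 for the inhibitor and FTL for the difference. It also called NFE2L2 (adjusted p = 0.039), KEAP1 (0.034) and FBXL5 (0.014) for Dox, BACH1 (0.0076), NFE2L2 (0.029) and FBXL5 (0.008) for Dox with the inhibitor, and BACH1 (0.0086) for the inhibitor with Dox. Of 18 pairs of same-numbered libraries 9 had deviations correlated above 0.1 (-0.09 to 0.69). Differently numbered libraries of different groups ranged from -0.59 to 0.24, and 8 of 12 libraries correlated best with their own number. The pairing is thus a hint from the data and not part of the design. Fitting only the groups compared gave 1099 calls for Dox with the inhibitor, and no such fit exists for the difference between the Dox changes.

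With single libraries left out, genes called ranged from 1427 (without Dox 3) to 2665 for Dox and from 1121 (without Dox plus inhibitor 3) to 2920 for Dox with the inhibitor. They ranged from 3683 to 5011 for the inhibitor, 3057 to 4478 for the inhibitor with Dox, and 186 (without Dox 2) to 420 for the difference. Without replicate 1 of all groups, chosen after seeing the data, the counts were 2382, 2975, 5587, 4562 and 489 in this order. Counts also moved by over 1.5 times without vehicle 2 (1492 for Dox), inhibitor 2 (1352) and Dox plus inhibitor 2 (1245), both for Dox with the inhibitor, and, for the difference, without vehicle 2 (198), Dox 3 (207), inhibitor 2 (204), Dox plus inhibitor 2 (237) or 3 (214). List genes called ranged from 14 (without Dox 3) to 25 for Dox and from 9 (without Dox plus inhibitor 3, and 11 without Dox plus inhibitor 2) to 19 for Dox with the inhibitor, and were 22 and 20 without replicate 1 of all groups. Leaving out replicate 1 of all groups also ended the calls of STEAP3 for Dox (-0.2), SLC11A2 (-0.17) and FLVCR2 (-0.28) for the inhibitor with Dox, and ISCU for the difference (-0.36), and called FTL for the difference (-0.63). It ended the calls of PPOX for Dox (-0.34) and SLC39A14 for Dox with the inhibitor (-0.14). For Dox with the inhibitor it called BACH1 (0.43), NFE2L2 (0.26) and FBXL5 (0.24), and for the inhibitor with Dox it called BACH1 (-0.25). The cause of these changes was not tested. Without fragment counts, the depth behind low genes such as SLC40A1 is unknown.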
